A study of Mus musculus with 18 samples.

Results

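The 10 genes described here form the core of the stress pathway that runs from the kinase PERK through the transcription factors ATF4 and CHOP: Atf4, Atf5, Atf3, Ddit3, Nupr1, Trib3, Ppp1r15a, Sesn2, Ddit4 and Chac1. They were taken by gene symbol from the 19938 genes measured, each through its 1 probe set with a single symbol, and all 10 were found. RNA came from mouse B16 F10.9-4 cells, a melanoma line in which doxycycline switches on LIP, the truncated form of C/EBPβ, a transcription factor encoded by Cebpb. Tunicamycin, which blocks N-linked glycosylation and so loads the endoplasmic reticulum (ER) with misfolded protein, was given afterwards. There were 6 groups. At 0 h cells had received vehicle or doxycycline alone, and at 5 h and 12 h of tunicamycin they had or had not been pretreated with doxycycline. Every group has 3 arrays, and the replicate number stands for one of 3 independent experiments. All cells were of this 1 line. Vehicle cells at 5 or 12 h and doxycycline-treated cells without LIP were not analysed here, so time in culture cannot be told apart from tunicamycin, nor doxycycline from LIP. The comparisons ask how these genes rise under ER stress and what LIP does to that rise.

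PERK senses misfolded protein in the ER and phosphorylates the translation factor eIF2α, which slows most protein synthesis while letting ATF4 protein be made. ATF4 pairs with other basic leucine zipper proteins, C/EBP family members among them, and switches on further factors such as ATF3 and CHOP (the product of Ddit3). It also switches on genes for amino acid supply and for feedback, including the phosphatase subunit encoded by Ppp1r15a that takes the phosphate off eIF2α again. CHOP is best known for its link to cell death in prolonged ER stress. The arrays read messenger RNA only, so neither phosphorylation nor protein is measured.

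The DNA element most often tied to ATF4 and its C/EBP partners is the C/EBP-ATF response element, with the core TGATGNAA. It was looked for on both strands in the RefSeq promoter table for mouse (GRCm38), which holds the 250 bases before and the 50 bases after each gene's start, and which matched all 10 genes (11 promoters, as Atf5 has several starts listed). The core was found in 4 of the 10 genes, and in 3.97% of the 32851 promoters of that length in the table. In Atf3, Chac1 and Nupr1 it lay upstream of the start and read TTGCATCA, the core on the opposite strand. In Trib3 the match TTACATCA lay 14 bases past the start. The cyclic AMP response element TGACGTCA, which ATF and CREB factors bind, was found in Ppp1r15a alone of the 10, and in 1.79% of all promoters. The ER stress element ERSE, which ATF6 binds, was found in 0.119% of all promoters and in 0 of these 10 genes. The matches share no bases with one another. The upstream matches are shown because Atf3, Chac1 and Nupr1 are the genes on which the results with LIP turn; each is written 5′ to 3′ on the gene's strand, with the match in capitals.
Atf3, chr1:191183416-191183463, minus strand: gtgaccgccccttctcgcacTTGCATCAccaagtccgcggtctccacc
Chac1, chr2:119351029-119351076, plus strand: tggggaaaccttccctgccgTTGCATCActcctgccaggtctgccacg
Nupr1, chr7:126625553-126625600, minus strand: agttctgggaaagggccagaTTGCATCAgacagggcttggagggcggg
Ppp1r15a, chr7:45526269-45526300, minus strand: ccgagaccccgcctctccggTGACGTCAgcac
These are matches of letters within a fixed window. Binding was not measured, and elements outside the window were not searched.

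Values are the authors' log2 intensities, and their precision is limited by the 3 arrays per group. The induced gene followed its labels on every array: Cebpb stood at 9.26 to 9.48 in vehicle and at 11.02 to 11.27 with doxycycline alone. Its probe set reads the whole gene, not LIP by itself. Of 10 melanocyte lineage markers 9 lay above 6.07, the level under which 95% of 1194 olfactory and vomeronasal receptor genes lay, with Tyrp1 the highest at 13.64 and Oca2 the one below. Markers of fibroblasts (4 of 6), leukocytes (1 of 5), epithelium (3 of 4) and endothelium (1 of 4) also passed that level, the highest being Col1a2 at 7.90. Group means of these other lists ran from 6.43 to 6.51, 5.49 to 5.77, 6.18 to 6.26 and 5.65 to 5.71 in that order, and the part of such cells in the results was not tested. Mean level of the melanocyte markers fell from 11.05 in vehicle to 10.73 with doxycycline alone, and from 10.97 to 10.48 at 12 h of tunicamycin; its part in the results with LIP was not tested. All 10 stress genes were above the receptor level in every group, with a lowest group mean of 7.64 (Atf5 in vehicle). Among the 18 arrays the residual SD was highest for tunicamycin 5 h in experiment 2 (0.114) and tunicamycin 12 h in experiment 3 (0.0914).

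After 5 h of tunicamycin without LIP all 10 genes had risen, and in each of them the 3 treated arrays lay above the 3 vehicle arrays. Here and below, such separation of arrays is a description only. The share of all genes that showed it was not counted. Among all genes 4.08% rose in this comparison (813 genes, or 495 with array medians set equal) and 4.94% fell. Here and below, shares over all genes are of 19938 genes, dim ones included, while the 10 genes are not dim. With genes of a mean under the receptor level left out, 13290 remained, of which 925 rose and 1198 fell. Shares among these brighter genes are thus larger. Changes are given as log2 differences ± SE (standard error), with the adjusted p that limma gave over all 19938 genes. The median change of the 10 genes was 0.70, against 0.02 for all genes. Whether fewer cells of one kind or less RNA per cell lies behind a difference cannot be told apart in bulk RNA.

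Chac1, an enzyme that breaks down glutathione, rose the most by 5 h. Its levels were 9.24, 9.26 and 9.32 in vehicle and 10.79, 10.72 and 10.95 after 5 h. The rise of 1.55 ± 0.0668 (adjusted p = 4.96e-11, 2.93-fold) was the 3rd largest of all genes. Ddit3, which encodes CHOP, was next, with vehicle arrays at 8.83, 8.49 and 8.84 and 5 h arrays at 9.85, 9.79 and 10.04, a rise of 1.17 ± 0.0836 (adjusted p = 5.9e-08). The vehicle array of experiment 2 was the low one. Trib3, a pseudokinase that ATF4 and CHOP induce and that feeds back on them, rose from 7.95, 7.95 and 7.70 to 9.06, 8.86 and 9.17, a change of 1.17 ± 0.0908 (adjusted p = 2.01e-07). These genes ranked 6th and 7th among all genes by their change.

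The other 7 genes rose by less at 5 h. Ppp1r15a rose by 0.75 ± 0.066 (adjusted p = 9.16e-07) and Nupr1, a small stress-induced chromatin protein, by 0.73 ± 0.0866 (adjusted p = 2.91e-05). The stress factor gene Atf3 rose by 0.66 ± 0.0811 (adjusted p = 4.16e-05). Sesn2 and Ddit4, whose products (sestrin 2 and REDD1) restrain the growth kinase complex mTORC1, rose by 0.58 ± 0.0837 (adjusted p = 0.000225) and 0.54 ± 0.0557 (adjusted p = 6.25e-06). The upstream factor genes moved least: Atf4 by 0.36 ± 0.0602 (adjusted p = 0.000757) and Atf5, a related factor, by 0.37 ± 0.0687 (adjusted p = 0.00202). The change pointed upward in all 3 experiments for each of the 10 genes.

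By 12 h without LIP all 10 genes stood higher again than at 5 h, by 0.66 (Ddit4) to 2.33 (Nupr1), where 11.4% of all genes rose in that step. Against vehicle the rises were between 1.07 and 3.06, and 4 of the 10 ranked among the 6 largest rises of all genes. Of all genes 11.9% rose against vehicle. Nupr1 led, at 8.21, 7.99 and 8.20 in vehicle and 11.24, 11.17 and 11.19 at 12 h, a rise of 3.06 ± 0.0866 (adjusted p = 1.27e-14) or 8.36-fold, the 2nd largest of all. Ppp1r15a went from 8.02, 7.86 and 7.99 to 10.90, 10.91 and 10.96, a rise of 2.96 ± 0.066 (adjusted p = 1.26e-15) or 7.80-fold. The 12 h arrays of each gene lay far above its vehicle arrays and close to one another.

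Trib3 (2.91 ± 0.0908, adjusted p = 3.36e-14) and Ddit3 (2.89 ± 0.0836, adjusted p = 1.34e-14) rose nearly as far as these. The 12 h arrays of Ddit3 stood at 11.60, 11.61 and 11.62, the tightest group of any member with an SD of 0.00752. Chac1 followed with 2.31 ± 0.0668 (adjusted p = 1.34e-14). Atf3 rose by 1.71 ± 0.0811 (adjusted p = 1.27e-11) and Atf5 by 1.56 ± 0.0687 (adjusted p = 4.29e-12). Sesn2 (1.34 ± 0.0837, adjusted p = 4.91e-10), Ddit4 (1.19 ± 0.0557, adjusted p = 1.01e-11) and Atf4 (1.07 ± 0.0602, adjusted p = 1.23e-10) had the smallest rises of the 10. Sizes of change in different genes come from different probe sets.

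**Figure D1:**
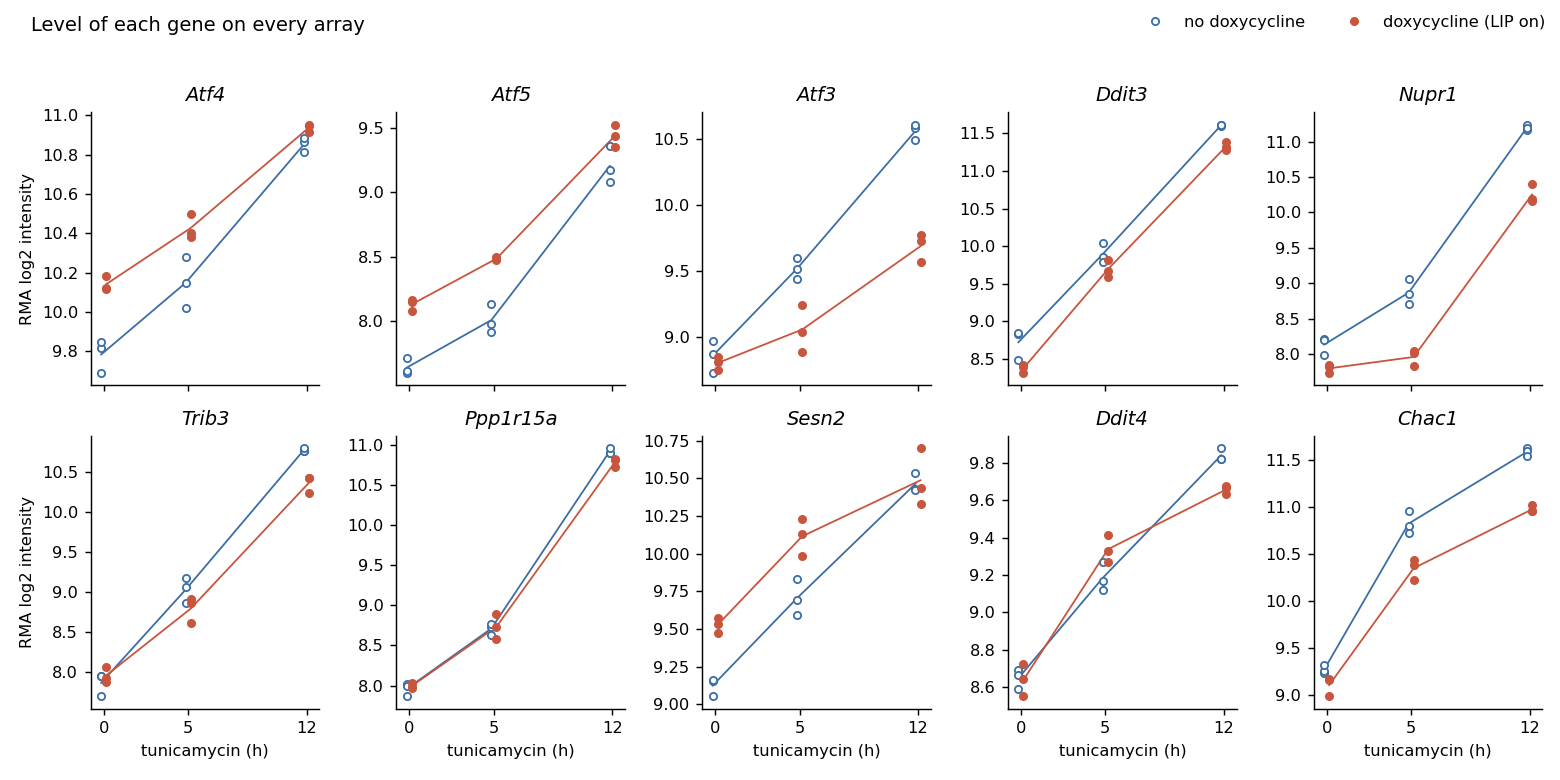
Level of each of the 10 genes (RMA log2 intensity, separate vertical scale per panel) against hours of tunicamycin, with 1 point per array, open without doxycycline and filled with doxycycline, and lines through the means of 3 arrays. Every gene climbs from 0 to 12 h in both series; with doxycycline Atf4, Atf5 and Sesn2 start higher and Nupr1, Atf3 and Chac1 end lower.

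The genes did not share 1 tempo. The change from 0 to 5 h was tested against the change from 5 to 12 h, a step that spans more hours. Of the 10 genes, 1 had the larger early step and 6 the larger late step, while 6.93% of all genes passed as early and 8.08% as late (15% in all). For 10 genes the count of 1 early is near the share over all genes. Chac1 was the early gene: 67% of its 12 h change was present at 5 h, and its early step exceeded its late one by 0.79 ± 0.116 (adjusted p = 8.04e-05). By the log2 difference between steps Nupr1 was the latest, with 23.9% present at 5 h (difference -1.60 ± 0.15, adjusted p = 4.59e-07). Ppp1r15a, the eIF2α phosphatase subunit, had 25.4% at 5 h (-1.46 ± 0.114, adjusted p = 6.25e-08) and Atf5, with the lowest share, 23.5% (-0.83 ± 0.119, adjusted p = 6.57e-05).

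Ddit3, Trib3 and Atf4 also had the larger late step. Their differences were -0.54 (adjusted p = 0.0153), -0.58 (adjusted p = 0.0161) and -0.34 (adjusted p = 0.0336), with 40.7, 40 and 34.1% of the 12 h change present at 5 h. All 3 lost this call when the experiment 2 array at 5 h without LIP was omitted (adjusted p = 0.0984, 0.135 and 0.267), which left 4 genes called in all. Ddit3 also lost it without the 5 h array of experiment 1 (0.0612), and Atf4 without either the 5 h array of experiment 3 (0.0945), the 12 h arrays of experiments 1 and 2 (0.0574 and 0.0625) or the vehicle arrays of experiments 1 and 3 (0.0667 and 0.0756), each left out singly. With only the compared groups fitted the calls of Ddit3 (0.0572) and Atf4 (0.102) were lost as well, and with array weights that of Ddit3 (0.0508). Atf3 (-0.38, interval -0.68 to -0.09, adjusted p = 0.0793), Sesn2 (-0.18, interval -0.48 to 0.13) and Ddit4 (-0.12, interval -0.32 to 0.08) did not pass. Atf3 passed without the vehicle array of experiment 2 (adjusted p = 0.0424) and without the arrays of experiments 1 or 2 given doxycycline with tunicamycin for 5 h (0.041 and 0.0499), with array medians set equal (0.0359) and with quantile normalization repeated (0.0368).

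With LIP on, 2 of the 10 genes were early and 4 late, against 8.77% and 7.04% of all genes (15.8% in all). Chac1 had 66.5% of its change present at 5 h (0.62 ± 0.116, adjusted p = 0.000839, but 0.0525 without experiment 1), and Ddit4 had 68.6% (0.38 ± 0.0965, adjusted p = 0.00948). The call for Ddit4 was lost without the experiment 1 array given doxycycline with tunicamycin for 5 h (adjusted p = 0.0828) and without experiment 1 or 3 as a whole (0.119 and 0.142). Nupr1 had only 6.55% of its 12 h change at 5 h (-2.13 ± 0.15, adjusted p = 1.63e-08). Ppp1r15a (-1.31), Trib3 (-0.74, adjusted p = 0.00245) and Atf5 (-0.60, adjusted p = 0.00142) were late as well. Atf3 stood at -0.38 (adjusted p = 0.082), and passed without the experiment 1 arrays given doxycycline with tunicamycin for 5 h (0.0109) or for 12 h (0.0455), with array weights (0.0421) and with quantile normalization repeated (0.0117).

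**Figure D2:**
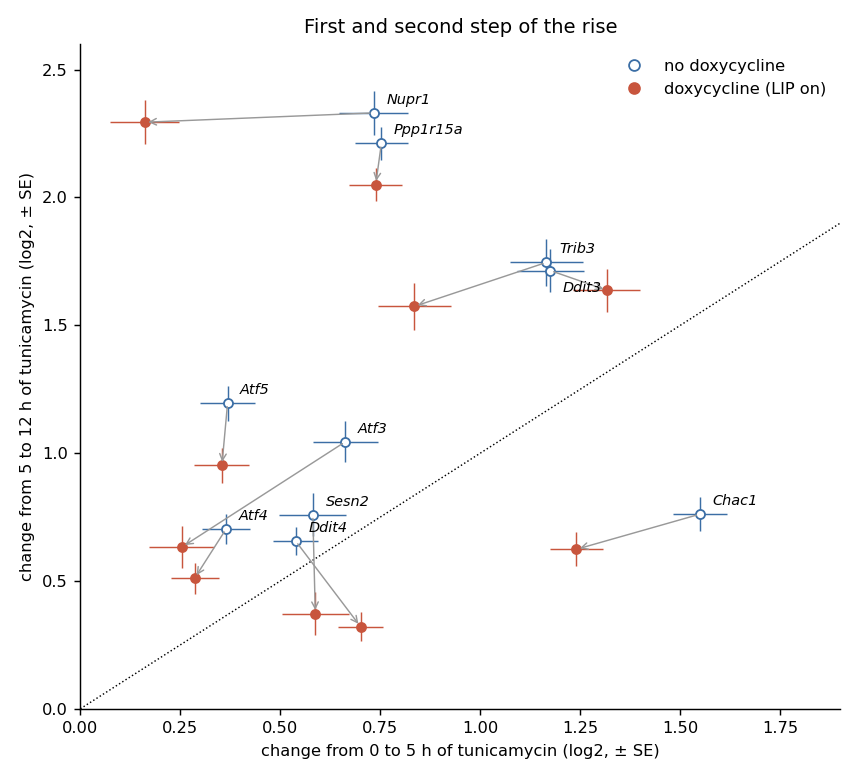
Change from 0 to 5 h (horizontal) against change from 5 to 12 h (vertical) of tunicamycin, log2 with SE, for each gene without (open) and with doxycycline (filled), joined by an arrow; on the dotted line the steps are equal. Chac1 lies well below the line, Nupr1 and Ppp1r15a far above it, and Nupr1 moves left with doxycycline, from 0.73 to 0.16.

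LIP before any stress moved these genes in both directions. Of the 10, 3 rose and 2 fell with doxycycline alone, where 4.89% of all genes rose and 5.82% fell (10.7% in all). The genes that rose were Atf5, Sesn2 and Atf4. Atf5 went from 7.60, 7.61 and 7.71 to 8.08, 8.15 and 8.16, a rise of 0.49 ± 0.0687 (adjusted p = 0.000117). Sesn2 went from 9.16, 9.05 and 9.16 to 9.53, 9.48 and 9.57 (0.40 ± 0.0837, adjusted p = 0.00343, but 0.0538 without experiment 1 and 0.0883 without experiment 3), and Atf4 from 9.81, 9.69 and 9.85 to 10.19, 10.12 and 10.12 (0.36 ± 0.0602, adjusted p = 0.000618). In each of these the groups did not overlap, which was also so for Chac1, a gene that did not pass. For Atf4 the level with LIP alone (10.14) was within 0.01 of the level after 5 h of tunicamycin (10.15), and those arrays overlapped.

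The genes that fell with LIP alone were Ddit3 and Nupr1. Ddit3 fell by 0.35 ± 0.0836 (adjusted p = 0.0108) and Nupr1, from 8.21, 7.99 and 8.20 to 7.84, 7.73 and 7.82, by 0.34 ± 0.0866 (adjusted p = 0.0162). Both were lower in all 3 experiments, but both lost the call without the vehicle array of experiment 1 (adjusted p = 0.0692 and 0.081), the vehicle array of experiment 3 (0.0685 and 0.0755) or the doxycycline array of experiment 2 (0.0542 and 0.0741). The remaining 5 did not pass. Chac1 stood at -0.16 (interval -0.30 to -0.02, adjusted p = 0.142), Trib3 at 0.09 (-0.10 to 0.28), Atf3 at -0.05 (-0.22 to 0.12), Ppp1r15a at 0.04 (-0.10 to 0.18) and Ddit4 at -0.01 (-0.13 to 0.11), the intervals being 95% intervals.

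At 5 h of tunicamycin the split was 3 up and 3 down with LIP, against 6.76% of all genes up and 5.21% down (12% in all). Atf5, Sesn2 and Atf4, the genes that LIP had raised at 0 h, again stood higher, Atf5 by 0.48 ± 0.0687 (adjusted p = 9.14e-05), Sesn2 by 0.41 ± 0.0837 (adjusted p = 0.0023) and Atf4 by 0.28 ± 0.0602 (adjusted p = 0.00367). Atf4 lost the call when only the compared groups were fitted (0.0647) and without experiment 3 (0.0866), and Sesn2 without experiment 1 (0.0839). Nupr1 was the most lowered, with 8.84, 8.70 and 9.06 without and 8.04, 7.83 and 8.01 with LIP. The difference of -0.91 ± 0.0866 (adjusted p = 9.09e-07) was the 14th largest fall of all genes. Its arrays with LIP and 5 h of tunicamycin overlapped the vehicle arrays, and against doxycycline alone Nupr1 stood at 0.16 (interval -0.02 to 0.34, adjusted p = 0.31).

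Chac1 and Atf3 were also lower with LIP at 5 h. Chac1 read 10.44, 10.23 and 10.38, below all 3 arrays without LIP (-0.47 ± 0.0668, adjusted p = 7.4e-05). Atf3 read 9.24, 8.88 and 9.04 where it had been 9.52, 9.44 and 9.59 without LIP (-0.46 ± 0.0811, adjusted p = 0.00062, and 0.0629 without experiment 3). Ddit3 (-0.20, interval -0.38 to -0.03, adjusted p = 0.144) and Trib3 (-0.24, interval -0.43 to -0.05, adjusted p = 0.111) did not pass, although each was lower in all 3 experiments. With array weights both passed (0.0101 and 0.00442), and Trib3 passed without the tunicamycin 5 h array of experiment 2 (0.027) and with quantile normalization repeated (0.0314). Ppp1r15a stood at 0.02 (interval -0.12 to 0.16). Ddit4 stood at 0.15 (interval 0.04 to 0.27, adjusted p = 0.0915), and passed without the tunicamycin 5 h array of experiment 3 (0.0495).

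Against doxycycline alone, 5 h of tunicamycin raised 9 of the 10 genes in cells with LIP, where 6.54% of all genes rose. Ddit3 rose by 1.32 ± 0.0836 (adjusted p = 7.19e-09) and Chac1 by 1.24 ± 0.0668 (adjusted p = 9.97e-10). Atf3 rose by 0.25 ± 0.0811 (adjusted p = 0.0482), a call that was lost without any 1 of the 3 doxycycline arrays (0.109, 0.155 and 0.0823 for experiments 1 to 3) or without the experiment 1 or 3 array of the group compared (0.264 and 0.0951). It was also lost on leaving out each of 6 arrays outside the compared groups, which share the estimate of the spread (0.0528 to 0.0611): vehicle 3, tunicamycin 5 h 1 and 3, tunicamycin 12 h 1 and 2, and doxycycline with tunicamycin 12 h 3. By 12 h all 10 had risen against doxycycline alone, by 0.80 (Atf4) to 2.95 (Ddit3), where 13.4% of all genes rose. From 5 to 12 h with LIP all 10 rose further, by 0.32 (Ddit4) to 2.29 (Nupr1), beside 10.9% of all genes. Atf4, at 0.29 after 5 h with LIP (adjusted p = 0.00322), lost that call without experiment 3 (0.0927).

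At 12 h of tunicamycin LIP lowered 6 of the 10 genes and raised 1, against 7.77% of all genes lowered and 6.95% raised (14.7% in all). For 10 genes the count of 1 raised is near the share over all genes. With the dim genes left out, 1705 of 13290 genes were lowered and 1537 raised. Nupr1 read 10.19, 10.16 and 10.41 with LIP, below the 11.24, 11.17 and 11.19 without it, a difference of -0.94 ± 0.0866 (adjusted p = 3.34e-07) or 1.92-fold lower. Atf3 read 9.57, 9.77 and 9.72 against 10.59, 10.61 and 10.49 (-0.87 ± 0.0811, adjusted p = 3.8e-07, 1.83-fold lower). Chac1 read 10.95, 10.95 and 11.01 against 11.62, 11.59 and 11.54 (-0.61 ± 0.0668, adjusted p = 3.01e-06, 1.53-fold lower). In these 3 genes the LIP arrays lay clear below the others. For Atf3 and for Chac1 the LIP arrays at 12 h overlapped the arrays that had 5 h of tunicamycin without LIP.

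Trib3 was lower by a smaller margin, at 10.24, 10.43 and 10.43 against 10.77, 10.76 and 10.80 (-0.41 ± 0.0908, adjusted p = 0.00368, and 0.135 without experiment 1). Ddit3 read 11.32, 11.38 and 11.28 against 11.60, 11.61 and 11.62 (-0.28 ± 0.0836, adjusted p = 0.0279). Ddit4 read 9.63, 9.68 and 9.66 against 9.82, 9.88 and 9.82 (-0.18 ± 0.0557, adjusted p = 0.032). For these 3 genes too the groups did not overlap, which was also so for Atf4 and Ppp1r15a, genes that did not pass. The call for Ddit3 was lost on leaving out any 1 of 5 of the 6 arrays compared (0.0671 to 0.102, the exception being the LIP array of experiment 2), and that for Ddit4 on leaving out any of the 6 (0.0502 to 0.113). Atf5 alone was raised, from 9.08, 9.17 and 9.36 to 9.35, 9.52 and 9.44 (0.23 ± 0.0687, adjusted p = 0.0264). Its arrays overlapped, and the call was lost without the LIP array of experiment 2 or 3 (0.115 and 0.071), without the tunicamycin array of experiment 1 or 2 (0.155 and 0.0879) and with only the compared groups fitted (0.101), as was that of Ddit4 in this last fit (0.0689).

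Atf4 and Sesn2 did not pass with LIP at 12 h. The difference in Atf4 was 0.09 (interval -0.04 to 0.21, adjusted p = 0.453), with levels of 10.92, 10.95 and 10.95 above the 10.86, 10.88 and 10.81 without LIP, with no overlap and higher in 3 of 3 experiments. Sesn2 stood at 0.02 (interval -0.15 to 0.20). Ppp1r15a, the feedback phosphatase gene, stood at -0.14 (interval -0.28 to 0.00, adjusted p = 0.207) and did not pass with LIP at any of the 3 times.

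**Figure D3:**
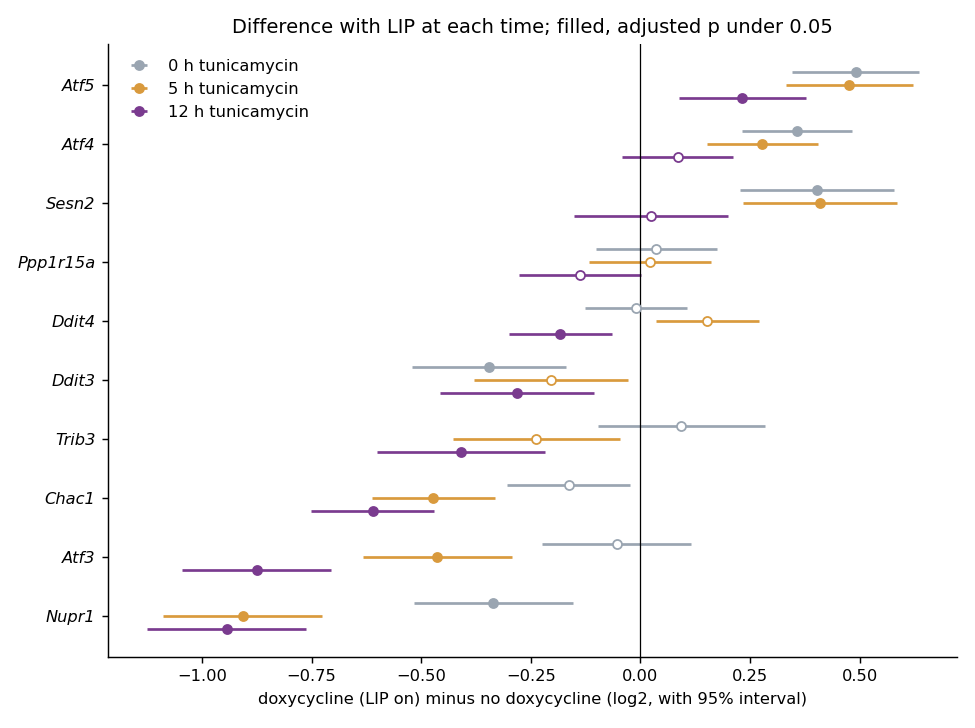
Difference between cells with and without doxycycline for each gene at 0, 5 and 12 h of tunicamycin, log2 with 95% intervals, filled where the adjusted p was under 0.05. Atf5, Atf4 and Sesn2 lie on the right at 0 and 5 h, and Nupr1, Atf3 and Chac1 on the left at 12 h, down to -0.94 for Nupr1.

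Whether LIP changed the response to tunicamycin itself was tested as an interaction, the difference with LIP under tunicamycin minus that at 0 h. The induced gene did not keep 1 difference over time. Cebpb was higher with doxycycline by 1.84 at 0 h, 1.81 at 5 h and 1.22 at 12 h. Its own interaction at 12 h was -0.62 (adjusted p = 0.00247 in limma), and the part of this in the results was not tested. At 12 h the response was smaller with LIP in 3 of the 10 genes, where 0.848% of all genes passed with a negative and 0.993% with a positive value (1.84% in all). With the dim genes left out, 210 of 13290 genes passed with a negative and 270 with a positive value. Atf3 had an interaction of -0.82 ± 0.115 (adjusted p = 0.000535): it rose by 1.71 without LIP and by 0.89 with it. The interaction for Nupr1 was -0.61 ± 0.122 (adjusted p = 0.0124), with rises of 3.06 and 2.45. In Chac1 it was -0.45 ± 0.0944 (adjusted p = 0.0175), with rises of 2.31 and 1.86. The value was negative in all 3 experiments for each of these genes. With experiment 3 left out, so that each group held 2 arrays, the calls of all 3 were lost (0.0732 for Atf3, 0.0654 for Nupr1 and 0.229 for Chac1), and without experiment 1 those of Nupr1 (0.365) and Chac1 (0.466); the values then ran from -0.37 to -0.86. Chac1 also lost the call with array medians set equal (0.0512) and without the vehicle array of experiment 1 (0.0527) or the doxycycline array of experiment 1 or 3 (0.0597 and 0.0548).

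Trib3 just missed the threshold at 12 h (-0.50 ± 0.128, adjusted p = 0.0533). It passed with only the compared groups fitted (0.0224), with array weights (0.0223), with the dimmest genes left out (0.0386), with quantile normalization repeated (0.0254) and with a variance trend and robust estimation (0.0192). It also passed without 1 of 3 arrays outside the comparison, tunicamycin 5 h of experiment 2 or 3 (0.0275 and 0.0486) or doxycycline with tunicamycin 5 h of experiment 2 (0.033). Ddit3, although lower with LIP at 12 h, had an interaction of 0.06 (interval -0.18 to 0.31): it was already lower by 0.35 at 0 h, and rose by 2.89 without and 2.95 with LIP. Atf4 (-0.27, adjusted p = 0.131), Atf5 (-0.26, adjusted p = 0.244) and Sesn2 (-0.38, adjusted p = 0.129) did not pass. Sesn2 did pass with array weights (0.0334), with quantile normalization repeated (0.0428) and without the experiment 2 array given doxycycline with tunicamycin for 12 h (0.018), and Atf4 with quantile normalization repeated (0.0231). The 10 values ran from -0.82 to 0.06.

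At 5 h limma called 0 of the 10 interactions, where 0.0301% of all genes passed. An unadjusted p under 0.05 was found in 4, and the share of all genes with such a p was not counted. The largest interaction was in Nupr1 (-0.57 ± 0.122, adjusted p = 0.15), the lowest value of all 19938 genes. With the experiment as a replicate block, which pairs the arrays, Nupr1 passed (0.0248), as it did with array weights (0.00774) and with a variance trend and robust estimation (0.0449). Atf3 (-0.41, adjusted p = 0.338) and Chac1 (-0.31, adjusted p = 0.4) passed with array weights (0.0285 and 0.0319). The effect of LIP at 12 h was also set against that at 5 h. Here too limma called 0 of the 10, with 0.702% of all genes passing. All 10 values were negative (-0.04 to -0.41), and 5 had an unadjusted p under 0.05. The share of all genes with either was not counted. The 10 values come from the same arrays, so their common sign is a description only. Ddit4, at 0.15 with LIP at 5 h and -0.18 at 12 h, came nearest (-0.34 ± 0.0788, adjusted p = 0.0607), and passed without the tunicamycin 5 h array of experiment 3 (0.0426), with the dimmest genes left out (0.0379), with quantile normalization repeated (0.0456) and with a variance trend (0.0484). Sesn2 (-0.39, adjusted p = 0.207) passed without the experiment 2 array given doxycycline with tunicamycin for 12 h (0.0255), and Atf3 (adjusted p = 0.143) without the experiment 2 array given doxycycline with tunicamycin for 5 h (0.0477).

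As a share of the rise without LIP, the 12 h rise with LIP was 51.9% in Atf3, 71.6% in Sesn2 and 74.6% in Atf4. It was 80.1% in Nupr1, 80.7% in Chac1, 82.7% in Trib3, 83.5% in Atf5 and 85.5% in Ddit4. Ppp1r15a kept 94.1% and Ddit3 102%. At 5 h Nupr1 kept 21.9% and Atf3 38.3%, while Ddit4 reached 130%. For Atf4 and Sesn2 the smaller rise came with a higher start, and for Atf3 with a level at 0 h that differed by 0.05. These shares have no test of their own; the interaction above is the test on the log2 scale.

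The order of the 6 groups differed between genes. In Ddit3 it ran doxycycline alone, vehicle, the 5 h groups, then the 12 h groups, with LIP below its counterpart at each time; the 5 h groups overlapped each other. Ddit4 and Ppp1r15a had all 12 h arrays on top and the 0 h groups overlapping at the bottom. In Atf4, Atf5 and Sesn2 vehicle was lowest and clear of every other group, and 12 h with LIP was highest. In Nupr1 doxycycline alone, doxycycline with 5 h of tunicamycin, and vehicle formed the bottom of the order, with neighbours overlapping.

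Among themselves the 10 genes were most alike in Trib3 and Ddit3 and least alike in Atf5 and Atf3. Over the 18 arrays Pearson's r was 0.987 for the former pair and 0.724 for the latter; these values describe the arrays, which share 6 groups and so are not independent points. Outside the 10, the gene most like each was sought by the same measure among 17063 genes. The nearest to Ddit3 was Slc7a11, the cystine transporter (0.996). For Atf5 it was the glycine transporter gene Slc6a9 (0.997), for Atf4 the mitochondrial folate enzyme gene Mthfd2 (0.987) and for Atf3 Slc38a7 (0.985). For Nupr1 it was Cyb5r2 (0.993), and Otub2, which encodes a deubiquitinase, was nearest to both Ppp1r15a (0.995) and Trib3 (0.993). Sesn2 was nearest to Engase (0.983), Ddit4 to Thumpd3 (0.975) and Chac1 to Hoxb9 (0.972).

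Genes that act upstream of ATF4 were counted next. Of 9 measured genes for eIF2 kinases, eIF2 regulators and phosphatase subunits, 1 fell and none rose at 5 h of tunicamycin (median -0.04), and 3 rose and 3 fell at 12 h (median -0.08). Of all genes 4.08% rose and 4.94% fell at 5 h, and 11.9% and 15.8% at 12 h. For a list of 9 the numbers at 5 h are near the share over all genes. Eif2ak3, the gene for PERK, stood at 0.02 at 5 h (adjusted p = 0.887) and rose by 0.85 ± 0.0508 at 12 h (adjusted p = 2.55e-10). Dnajc3, whose product restrains eIF2 kinases, rose by 1.21 at 12 h, while Eif2ak2, the gene for the RNA-sensing kinase PKR, fell by 0.55 at 5 h and 0.71 at 12 h. Eif2ak1, the gene for the haem-regulated kinase, fell by 0.18. With LIP limma called 0 of the 9 at 5 h and 0 at 12 h. At an unadjusted p under 0.05 there were 3 and 1, and the share of all genes with such a p was not counted. Of all genes 12% and 14.7% were called, so for a list of 9 a count of 0 is near that share.

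Genes for leucine zipper partners of ATF4 and CHOP went both ways. Of 14 measured, 4 rose and 1 fell at 5 h, and 5 rose and 2 fell at 12 h (median 0.05). Of all genes 4.08% rose and 4.94% fell at 5 h, and 11.9% and 15.8% at 12 h, so the number that fell at 12 h is near the share over all genes. Cebpg, a partner of ATF4, rose by 1.17 at 12 h, Cebpb by 0.96, Jdp2 by 0.91 and the small Maf gene Mafg by 0.31. With LIP 5 of the 14 were higher at 5 h, beside 6.76% of all genes. Among them were Cebpb (1.81), Maf (0.67) and Fos (0.49). Cebpb is the gene that doxycycline induces, so its place in the counts with LIP was set by the design. At 12 h 2 were higher and 3 lower, beside 6.95% and 7.77% of all genes. The induced Cebpb (1.22) and Maf (0.37) stood higher and Jdp2 fell by 0.42. Apart from Cebpb, Maf alone was higher, which is near the share over all genes.

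Of 21 amino acid genes that ATF4 targets, 8 rose at 5 h (median 0.13) and 20 at 12 h (median 0.67, against 0.00 for all genes). Of all genes 4.08% rose at 5 h and 11.9% at 12 h. Slc7a11 rose by 2.73, the neutral amino acid transporter gene Slc1a4 by 1.98, Slc6a9 by 1.77 and Cth, a cysteine-making enzyme, by 1.76. With LIP 4 were higher and 6 lower at 5 h, and 2 higher and 8 lower at 12 h (median -0.16). Of all genes 6.76% were higher and 5.21% lower at 5 h, and 6.95% and 7.77% at 12 h. The number higher at 12 h is thus near the share over all genes. The difference with LIP in Slc1a4 was -0.86 at 5 h and -0.96 at 12 h, and the cysteinyl-tRNA synthetase gene Cars fell by 0.42 at 12 h. Cth and Slc6a9 were higher with LIP at both times, Cth by 0.41 and 0.43 and Slc6a9 by 0.47 and 0.28.

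Of 20 other measured targets of ATF4 and CHOP, 2 rose and 1 fell at 5 h, and 11 rose and 2 fell at 12 h (median 0.19). Of all genes 4.08% rose and 4.94% fell at 5 h, and 11.9% and 15.8% at 12 h. The numbers that fell are thus no higher than near the share over all genes. Herpud1, an ER degradation gene, rose by 2.29, Cdsn by 2.12, the growth arrest gene Gadd45a by 1.82 and the repressor gene Nfil3 by 1.45 at 12 h. With LIP Cdsn and Gadd45a were higher at 5 h (0.40 and 0.35) and lower at 12 h (-0.57 and -0.30), and Herpud1 was lower at both (-0.41 and -0.26). Vegfa, a vascular growth factor, was higher by 0.27 at 12 h. In all, 2 of the 20 were higher and 2 lower with LIP at 5 h, and 2 higher and 4 lower at 12 h. Of all genes 6.76% were higher and 5.21% lower at 5 h, and 6.95% and 7.77% at 12 h, so the numbers higher are near the share over all genes.

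For comparison, 15 targets of the other ER stress sensors, IRE1 and ATF6, were counted. At 5 h 1 of the 15 rose (Dnajb9, 0.42, with a list median of -0.06), which is near the 4.08% of all genes. At 12 h all 15 rose (median 0.76), beside 11.9% of all genes, with Dnajb9 at 2.24, Creld2 at 1.59, Hyou1 at 1.41 and Sdf2l1 at 1.33. With LIP at 5 h Pdia6 and Sdf2l1 were lower (-0.25 and -0.23), beside 5.21% of all genes. At 12 h Dnajb9 (0.30), Dnajb11 (0.26) and Dnajc10 (0.19) were higher, the remaining 12 not passing, beside 6.95% of all genes. With LIP alone 11 of the 15 fell and none rose (median -0.22), where 5.82% of all genes fell and 4.89% rose. The interaction at 12 h is taken against that lower start. It was positive and passed in 6 of 15 genes (median 0.25), beside 0.993% of all genes, while the median difference with LIP at 12 h itself was 0.03. In the 10 stress genes the interaction was negative and passed in 3 (median -0.33), beside 0.848% of all genes. The lists themselves were not tested against each other.

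**Figure D4:**
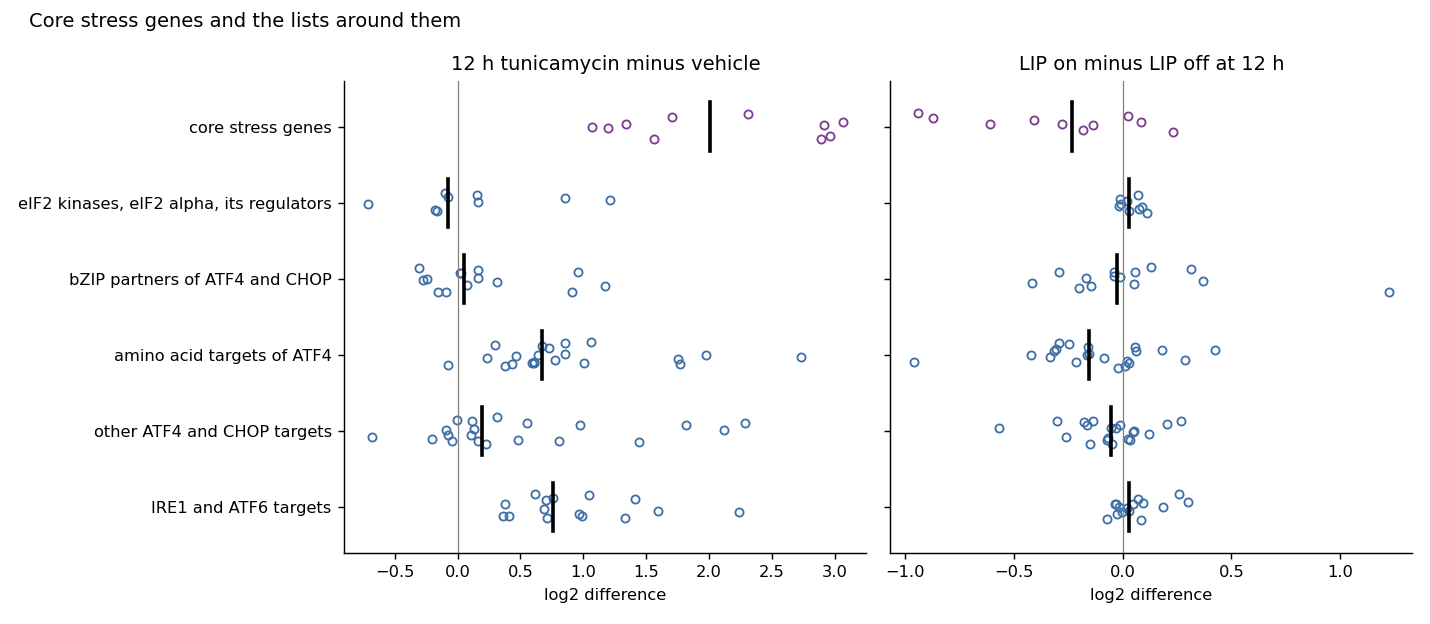
Log2 difference of each gene (circles) at 12 h of tunicamycin against vehicle (left) and with against without LIP at 12 h (right), for the 10 core stress genes and the lists around them, with black bars at the medians. The core genes have the highest median on the left panel (2.01), and on the right panel their median is -0.23, beside -0.16 for the amino acid targets and 0.03 for the IRE1 and ATF6 targets.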

How the data were processed

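Total RNA of 18 cultures was hybridized to 1-colour Affymetrix arrays, biotin-labelled after amplification with the Ambion WT Expression Kit, per the labels' protocols. The deposited table holds the authors' log2 intensities of 35557 probe sets. RMA and Partek are named in the submitters' processing notes, the genome build not given in the sources used here. No further normalization was applied to these values. Of the probe sets 21789 carry 1 gene symbol in the platform table, and the brightest per gene was kept (19938 genes). Limma (version 3.58.1, R 4.3.3) was fitted with 1 mean per group on the 18 arrays together, with Benjamini-Hochberg adjustment per comparison and a threshold of 0.05, for 14 comparisons. The spread came from 12 residual and 5.99 prior degrees of freedom.

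Named were the 10 members, Cebpb, per list up to 4 called genes with the largest change at 12 h and up to 3 for LIP at 5 and at 12 h, and each member's nearest genes by r. Predicted and clone-named genes, small RNAs and receptor genes were left out of that search. Members, lists and tests were chosen with earlier results of these data known, and the motifs after the files were seen. The procedure was tested on simulated data. The replicate numbers pair the arrays, since the submitters' design text describes 3 independent experiments, each with the control and every treatment. Over 45 same-numbered pairs the median correlation of deviations from group means was 0.04 (-0.50 to 0.50). Arrays of a group correlated at 0.993 to 0.998, and 0 were identical. Alternatives were the replicate block, compared groups alone, a filter on dim genes, quantile normalization repeated, array medians set equal, trend and robust estimation, array weights, the mean of probe sets, each array and each experiment left out and, added after the data were seen, both arrays of largest residual spread left out.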

Additional observations from a re-analysis of the deposited data

Results flagged for a closer look

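The difference that 12 h of tunicamycin made was smaller with LIP than without it in 3 of the 10 genes, by the interaction test in limma. Of all genes 0.848% passed with a negative value (1.84% in all). In Atf3 the interaction was -0.82 (adjusted p = 0.000535), in Nupr1 -0.61 (adjusted p = 0.0124) and in Chac1 -0.45 (adjusted p = 0.0175), each negative in 3 of 3 experiments. All 3 calls were lost without experiment 3 (adjusted p = 0.0732, 0.0654 and 0.229 in limma). Without experiment 1 those of Nupr1 and Chac1 were lost (0.365 and 0.466). The number of the 10 genes called ran from 0 to 6 over the alternatives. Groups of 3 arrays are too small to test for an array that stands apart.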

How the results depend on the processing

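Over 30 alternatives and 140 gene-by-comparison results, 4067 of 4200 values kept their direction and side of the threshold, 91 lost the call, 42 gained it and 0 called values changed sign. The counts of 10 of 10 genes raised by tunicamycin (5 h, 12 h, and 12 h against 5 h without LIP; 12 h, and 12 h against 5 h, with LIP) were 10 under every alternative run. With 1 array or 1 experiment left out, the count called was 2 to 5 of 5 for LIP alone, 4 to 7 of 6 for LIP at 5 h, 3 to 7 of 7 for LIP at 12 h, 7 to 9 of 9 for tunicamycin 5 h with LIP, 0 to 5 of 3 for the interaction at 12 h, 0 at 5 h, 0 to 1 between 12 and 5 h, 4 to 8 of 7 for early against late rise and 5 to 7 of 6 for that with LIP. The early-late count was 4 without both arrays of largest residual spread. The interaction count at 12 h was 5 with array weights and 6 with quantile normalization repeated. At 5 h it was 3 with array weights, 1 with the replicate block and 1 with trend and robust estimation. Between 12 and 5 h it was 1 with dim genes left out, 1 with quantile normalization repeated and 1 with trend and robust estimation. The replicate block changed no other call of the 10 genes. Of all genes, array weights called 3631 for LIP alone (main 2135), 4381 for tunicamycin 5 h (1798), 3605 for LIP at 5 h (2386), 5462 for early against late (2993), and 777, 119 and 234 for the interactions at 12 h, 5 h and between them (367, 6 and 140). Compared groups alone called 1054 for tunicamycin 5 h, 1413 for LIP at 5 h, and 2 and 66 for the interactions at 5 h and between times. Trend and robust estimation gave 567, 27 and 219 for the 3 interactions, array medians set equal 15 at 5 h, and leaving out both arrays of largest spread 85 between times. With array medians set equal, genes up and down were 587 and 1761 for LIP alone (974 and 1161), 495 and 1578 for tunicamycin 5 h (813 and 985), 2606 and 1868 for 12 h against 5 h (2264 and 2719), 777 and 2118 for early against late (1382 and 1611) and 230 and 87 for the interaction at 12 h (198 and 169). Each gene has 1 probe set, so averaging probe sets left its values as they were.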

Other observations

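The genes whose response at 12 h was smaller with LIP, Atf3, Nupr1 and Chac1, were also the 3 of the 10 with a TTGCATCA match in the 250 bases before their start. This overlap was seen after both values were known and was not tested. The 3.97% of promoters given above is for the looser core TGATGNAA, bases past the start included. The share of promoters with TTGCATCA before the start was not counted. It depends on the threshold and on the window: Trib3, whose match lies 14 bases past the start, had an interaction of -0.50 (adjusted p = 0.0533), further from 0 than the -0.45 of Chac1, and the number of the 10 genes called ran from 0 to 6 over the alternatives. Among the genes of the lists, 63 had a promoter in the table and 7 had an upstream match to TGATGNAA on either strand, and in these 7 the interaction at 12 h ran from -0.38 (Jdp2, adjusted p = 0.0365) to 0.42 (Herpud1, adjusted p = 0.0128). Slc7a11, with a pair of matches, stood at 0.00 and rose by 2.73 with 12 h of tunicamycin, and Vldlr, with 1 match, stood at -0.01 after 12 h of tunicamycin. The median interaction was -0.10 in the 7 genes and 0.03 in the others. The others include the IRE1 and ATF6 targets (median 0.25) and the eIF2 list (0.08), which hold none of the 7. The lists that hold them had medians of -0.10 (leucine zipper partners), -0.05 (amino acid targets) and -0.05 (other targets). The match therefore cannot be told apart from the make-up of the lists, and the medians were not tested.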
